A study of Drosophila melanogaster with 11 samples.

Results

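The genes described here are 9 mesoderm and muscle genes of Drosophila melanogaster: twist (twi), Myocyte enhancer factor 2 (Mef2), tinman (tin), bagpipe (bap), nautilus (nau), held out wings (how), heartless (htl), stumps and Myosin heavy chain (Mhc). They were taken by name, as 9 of the 17557 genes annotated on the chromosome arms, with earlier results of these data known. A peak was assigned to one of them when the deposited annotation gave the gene as intersected by the peak or, for a peak that intersects no gene, as one of the genes beside it. All 9 genes are reported, with or without a peak.

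The study mapped the chromosomal contacts of the Notch effector Su(H) and of the proteins E(spl)m8-HLH and E(spl)m5-HLH by ChIP and DamID in 11 libraries and 6 conditions: pros-Gal4 driven ChIP of FLAG-tagged m8CK2 (labelled m8, a form of m8 changed at its CK2 site), pros-Gal4 driven ChIP of FLAG-tagged Su(H), pros-Gal4 driven m5 and m8 DamID, and un-driven m5 and m8 DamID. The header of the peak tables used here names m8 DamID and no Gal4 driver, from which the library was taken to be 1 of the 2 un-driven m8 DamID libraries rather than a pros-Gal4 driven one. It came from whole embryos at stage 9 to 16 grown at 26 °C, which for the un-driven condition carried UAS-m8-DamID, a fusion of the m8 protein to DNA adenine methyltransferase (Dam), without a Gal4 driver, so that leaky UAS expression supplied the fusion wherever the transgene leaked. The other conditions were not analysed here. Whole embryos hold mesoderm beside neural and epidermal tissue, and a library of DNA carries no tissue markers, so the tissues that gave rise to a peak cannot be told apart. No library of Dam alone is among the 11, so contact with the m8 fusion and general access of Dam to open chromatin cannot be told apart either.

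Twist, Tinman and Mef2 are transcription factors that act in sequence in the Drosophila mesoderm: Twist sets up the mesoderm, Tinman and Bagpipe direct its dorsal part to heart and visceral muscle, and Mef2 switches on muscle differentiation genes such as Mhc. Heartless is a fibroblast growth factor (FGF) receptor and Stumps its cytoplasmic adaptor, which together let mesoderm cells spread over the ectoderm. Notch signaling restricts the number of muscle progenitors, and the E(spl)-HLH proteins are basic helix-loop-helix repressors that Notch induces. Dam methylates the adenine of GATC, and DpnI cuts only methylated GATC, so that amplified fragments report where the fusion protein was close to DNA.

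The library held 1925156 reads, so that 1 RPM (a read per 1000000 reads of the library) stands for 1.93 reads. Peaks were called by Qseq, with 3973 peaks above 20 RPM, and by MACS, with 4209 peaks above 20 RPM and 1310 weaker ones. Both programs read the same library, so a peak found by both was not replicated. Each RPM below is the sum of reads over a peak, grows with the length of the peak, and is followed by an exact Poisson 95% interval that covers counting error only, since amplified reads are not independent molecules. The tables have no replicate, and no test between conditions was possible.

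Qseq placed peaks at 4 of the 9 genes (44.4%), namely how, Mef2, htl and stumps, against 14.4% of all genes on the arms. They held 14 peaks, of which 7 were at how and 4 at Mef2. MACS placed peaks above 20 RPM at 6 of the 9 genes (66.7%), with bap and twi added to the same 4 genes, against 18.6% of all genes. Together with the weaker MACS peaks, which add nau, the count was 7 of 9 (77.8%), against 23.2% of all genes. No table had a peak at tin or Mhc.

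Counting only peaks that lie within a gene, the 4 genes how, Mef2, htl and stumps were those found by Qseq, against 11.0% of all genes, and also those found by MACS above 20 RPM, against 14.7% of all genes. At 40 RPM or more Qseq left how, htl and stumps, with 4 peaks in all, against 9.08% of all genes. Mef2 was not among them, since its highest Qseq peak held 31.2 RPM.

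Peaks were more frequent at longer genes, and 5 of the 9 genes are 20 kb or longer. Among these 5 (twi, Mef2, how, stumps and Mhc) 3 had a Qseq peak and 4 a MACS peak above 20 RPM, against 53.2% and 61.8% of all genes of that length. Of the genes of 5 to 20 kb, htl had a peak in both tables and nau in neither, against 32.4% (Qseq) and 41.8% (MACS) of all genes of that length. Of the genes under 5 kb, tin had no peak and bap had a MACS peak only, against 8.25% (Qseq) and 11.2% (MACS) of all genes of that length. Apart from twi, the long genes Mef2, how and stumps had a peak in both tables and Mhc in neither. The long genes are too few to tell their share with a peak from that of long genes in general.

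**Figure D1:**
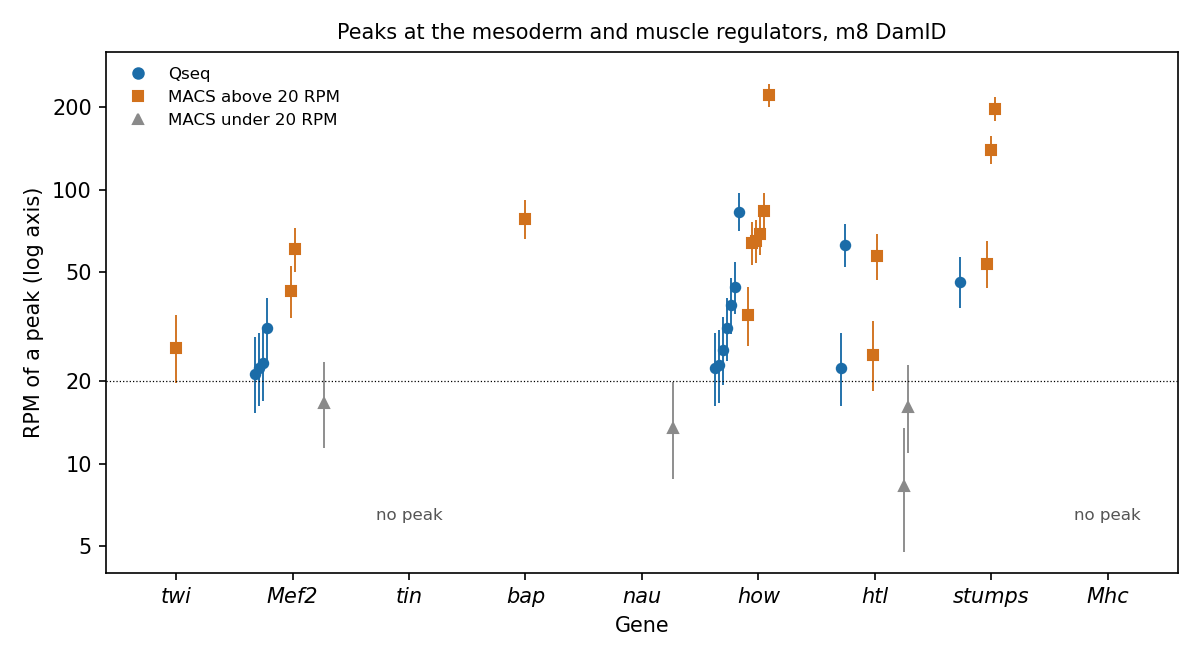
RPM of each peak at the 9 genes (vertical log axis) in the Qseq table (circles), the MACS table above 20 RPM (squares) and the MACS table under 20 RPM (triangles), with exact Poisson 95% intervals as bars and a dotted line at 20 RPM. The highest peak of the 9 genes is the MACS peak of 221.3 RPM between pit and how, nau has a single weak peak of 13.5 RPM, and tin and Mhc have none.

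The peaks at the 9 genes lay within the range of all peaks, mostly below the median for Qseq and mostly above it for MACS. The 14 Qseq peaks spanned 21.3 to 83.1 RPM with a median of 28.6 RPM, against 20.3 to 14473.6 RPM and a median of 40.5 RPM for all Qseq peaks, and 4 of the 14 were above the median of all. The 15 MACS peaks above 20 RPM spanned 24.9 to 221.3 RPM with a median of 63.9 RPM, against a median of 54.0 RPM for all such peaks, and 10 of the 15 were above it. The highest peaks of how, htl and stumps were above the median of all peaks in both tables, and that of Mef2 in the MACS table only.

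Per kb of peak, the median at the 9 genes was 46.4 RPM per kb for Qseq and 53.1 RPM per kb for MACS, against 58.5 and 47.2 RPM per kb over all peaks of these tables. Reads spread evenly over the 6 arms of Release 6 (X, 2L, 2R, 3L, 3R and 4; 134.0 Mb) would give 7.47 RPM per kb. The peaks of the 9 genes had 4.54 to 12.2 times that density in the Qseq table and 3.94 to 19.9 times that density in the MACS table above 20 RPM. This does not set them apart, since every peak of these tables was denser than an even spread. The lowest density of all peaks was 22.8 RPM per kb for Qseq and 22.7 RPM per kb for MACS.

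**Figure D2:**
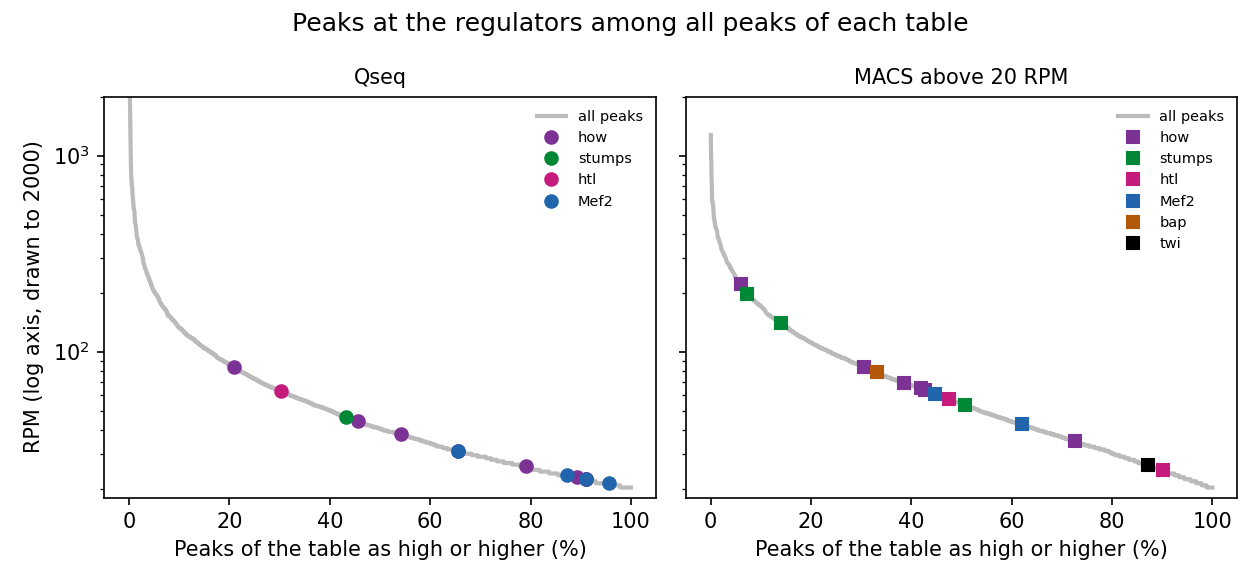
All peaks of the Qseq table (left) and of the MACS table above 20 RPM (right), ordered by height (grey line), with the share of peaks as high or higher on the horizontal axis (%) and RPM on a log axis cut at its upper end. Coloured points are the peaks at the named genes: the highest Qseq peak of how has 20.9% of Qseq peaks as high or higher, and the highest MACS peaks of how and stumps have 5.99% and 7.20%.

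Twist, the basic helix-loop-helix factor that specifies mesoderm, had no Qseq peak and 1 MACS peak of 26.5 RPM (19.7 to 34.8) at 2R:18939527-18940025 in the numbering of the tables. The peak lies between twi and CG30194, beyond the 3′ end of twi, and 87.1% of MACS peaks are as high or higher. In Release 6 twi runs for 63.0 kb on the plus strand of 2R, because the longest of 3 transcripts starts far upstream, while the shortest spans 2.0 kb. The tables do not name twi for peaks in this long first part, where they give 2 MACS peaks to CG42741, of 23.9 RPM (17.5 to 31.9) and 32.7 RPM (25.1 to 41.9), and a weak one between CG9896 and CG42741 of 11.9 RPM (7.57 to 17.9). Around twi all signal was therefore low, whichever span is taken.

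Mef2, the MADS-box factor of differentiating muscle, is a gene of 45.4 kb on the minus strand of 2R, with 11 transcripts from 3 start sites. It had 4 Qseq peaks, all inside the gene. The first, at 5828939-5829456, held 31.2 RPM (23.8 to 40.1). The other 3 lay side by side between 5835561 and 5837113, with 22.3 RPM (16.2 to 30.1), 23.4 RPM (17.0 to 31.3) and 21.3 RPM (15.3 to 28.9). The first pair of these overlap by 28 bp and the next gap is 58 bp, so that they form 1 stretch of signal. MACS called this stretch as 1 peak, at 5835559-5837124, of 60.8 RPM (50.3 to 72.8).

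As 1 MACS peak this stretch was above the median of all MACS peaks, while each of the 4 Qseq peaks of Mef2 was below the median of all Qseq peaks. MACS did not find the first Qseq peak, and placed another of 42.6 RPM (33.9 to 52.9) at 5826699-5827493, 1.45 kb away from it. A weak MACS peak of 16.6 RPM (11.4 to 23.5) at 5846264-5846924 intersects both Mef2 and CG15863, a gene that starts 260 bp beyond Mef2 in Release 6. Of the 1031 genes of 20 kb or more, 14.6% had at least as many Qseq peaks as Mef2 and 40.7% at least as many MACS peaks.

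tin and bap are neighbouring homeobox genes on 3R, 6.91 kb apart in Release 6, where tin acts in the heart and dorsal mesoderm and bap downstream of it in visceral mesoderm. tin, of 2.99 kb and with 11 GATC sites, had no peak in any table. bap, of 1.57 kb and with 12 GATC sites, had 1 MACS peak of 78.4 RPM (66.4 to 92.0) at 3R:17218901-17220612, between bap and CG6475 and so beyond the 3′ end of bap, in a gap of 7.33 kb in Release 6. It was the highest MACS peak among the 5 transcription factor genes, with 33.1% of MACS peaks as high or higher, and yet Qseq had no peak there. Since the peak lies between genes, either neighbour or neither may be the gene concerned.

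nau encodes the only MyoD-type factor of Drosophila. It had no peak above 20 RPM and 1 weak MACS peak inside the gene, of 13.5 RPM (8.82 to 19.8) at 3R:19542308-19542789. Of the weak MACS peaks 57.3% are as high or higher, so the nau peak sits near the middle of the weakest class. The gene is 5.54 kb long and has 14 GATC sites.

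how encodes an RNA-binding protein of the STAR family that is needed in tendon and muscle cells. It had the most peaks of the 9 genes, 7 in the Qseq table and 6 in the MACS table. In Release 6 the gene spans 3R:22042191-22079321 on the plus strand, 37.1 kb, and its 6 transcripts share 1 start site. Of all genes of 20 kb or more, 3.78% had at least as many Qseq peaks and 5.24% at least as many MACS peaks. The gene has 74 GATC sites, fewer per kb than any other of the 9 genes.

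The highest peak of the 9 genes lay upstream of how, between pit and how. MACS gave it 221.3 RPM (201 to 243), or 426 reads, over 1489 bp at 3R:17865090-17866578 in the numbering of the tables, and 5.99% of MACS peaks are as high or higher. Qseq found a far shorter peak of 285 bp within it, of 26.0 RPM (19.3 to 34.2). Per kb the readings were closer, 149 RPM per kb for MACS and 91.1 RPM per kb for Qseq, both the highest density at any of the 9 genes in their table. The next MACS peak, of 63.9 RPM (53.1 to 76.2), is given inside how and starts 1344 bp further on. Since the highest peak lies between genes, either neighbour or neither may be the gene concerned.

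In Release 6 the gap between pit and how is 3265 bp, and how is transcribed away from it. The sequences searched there, on both strands, were the Dam site GATC, 3 sites known for E(spl) and Hairy repressors, and the Su(H) site GTGGGAA. The repressor sites are written CACNAG (N box), CACGCG (C site) and, for the canonical E box, CACGTG. The gap holds 11 Dam sites, 5 N boxes, 1 C site at 2614 bp before the start of how, 1 Su(H) site at 809 bp before it and no E box. Of 13816 windows of the same length upstream of genes, 99.8% hold a Dam site, 98.4% an N box, 49.4% a C site, 33.0% a Su(H) site and 33.5% an E box, with medians of 11 Dam sites and 5 N boxes. The gap thus has the usual number of Dam sites and N boxes. The positions of the tables on 3R do not match Release 6 (the named gene overlapped the peak in 0 of 1683 cases), so whether a match lies within the peak was not tested.

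The last 300 bases of this gap, directly before the start of how, are shown from RefSeq (Release 6, chr3R:22041891-22042190, plus strand, 5′ to 3′). Both programs placed a peak in the gap, and Dam can only mark the sequence GATC, which is in capitals. In the numbering of the tables the MACS peak ends at 17866578 without reaching how. The Qseq peak ends at 17865425, more than 300 bases before that, and so lies outside the sequence shown. Whether the MACS peak reaches into the sequence shown was not tested. The window has 3 GATC matches. Of 13818 such windows 44.1% have any, and the share with 3 or more was not computed.
how: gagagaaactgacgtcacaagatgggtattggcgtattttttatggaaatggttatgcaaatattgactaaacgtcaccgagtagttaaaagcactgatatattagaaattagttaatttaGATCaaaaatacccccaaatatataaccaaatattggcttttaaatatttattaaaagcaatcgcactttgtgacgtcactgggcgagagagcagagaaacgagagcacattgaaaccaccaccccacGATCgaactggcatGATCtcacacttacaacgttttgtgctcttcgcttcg

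Inside how, Qseq gave 6 peaks. The highest, at 17878789-17879871, held 83.1 RPM (70.7 to 97.0), or 160 reads, and was the highest Qseq peak of the 9 genes. MACS found the same place at 17878431-17879882 with 83.6 RPM (71.2 to 97.6), so both programs read the same height here. Next to it Qseq had 44.2 RPM (35.3 to 54.6) at 17877113-17878289, 499 bp away.

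The other Qseq peaks inside how had 31.2 RPM (23.8 to 40.1) at 17873332, 22.9 RPM (16.6 to 30.7) at 17874593, 37.9 RPM (29.7 to 47.7) at 17888786 and 22.3 RPM (16.2 to 30.1) at 17893056. The other MACS peaks inside how had 64.9 RPM (54.0 to 77.4) at 17871604, 69.1 RPM (57.8 to 81.9) at 17887638 and 34.8 RPM (27.0 to 44.2) at 17892494. The programs met at 3 places along how: between pit and how, at the highest Qseq peak, and at the last peak. Elsewhere they gave neighbouring stretches that do not overlap, such as the MACS peak at 17887638-17888689 and the Qseq peak at 17888786-17889428, which are 96 bp apart.

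Over the gene and its flank, the peaks of how summed to 267.5 RPM in 5371 bp for Qseq and 537.6 RPM in 7207 bp for MACS. Both were the largest sums among the 9 genes. The MACS sum includes the peak of 221.3 RPM between pit and how, which may belong to either gene or to neither. Without that peak, the MACS sum of how would be below that of stumps, whose 3 MACS peaks, all inside the gene, summed to 390.1 RPM.

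**Figure D3:**
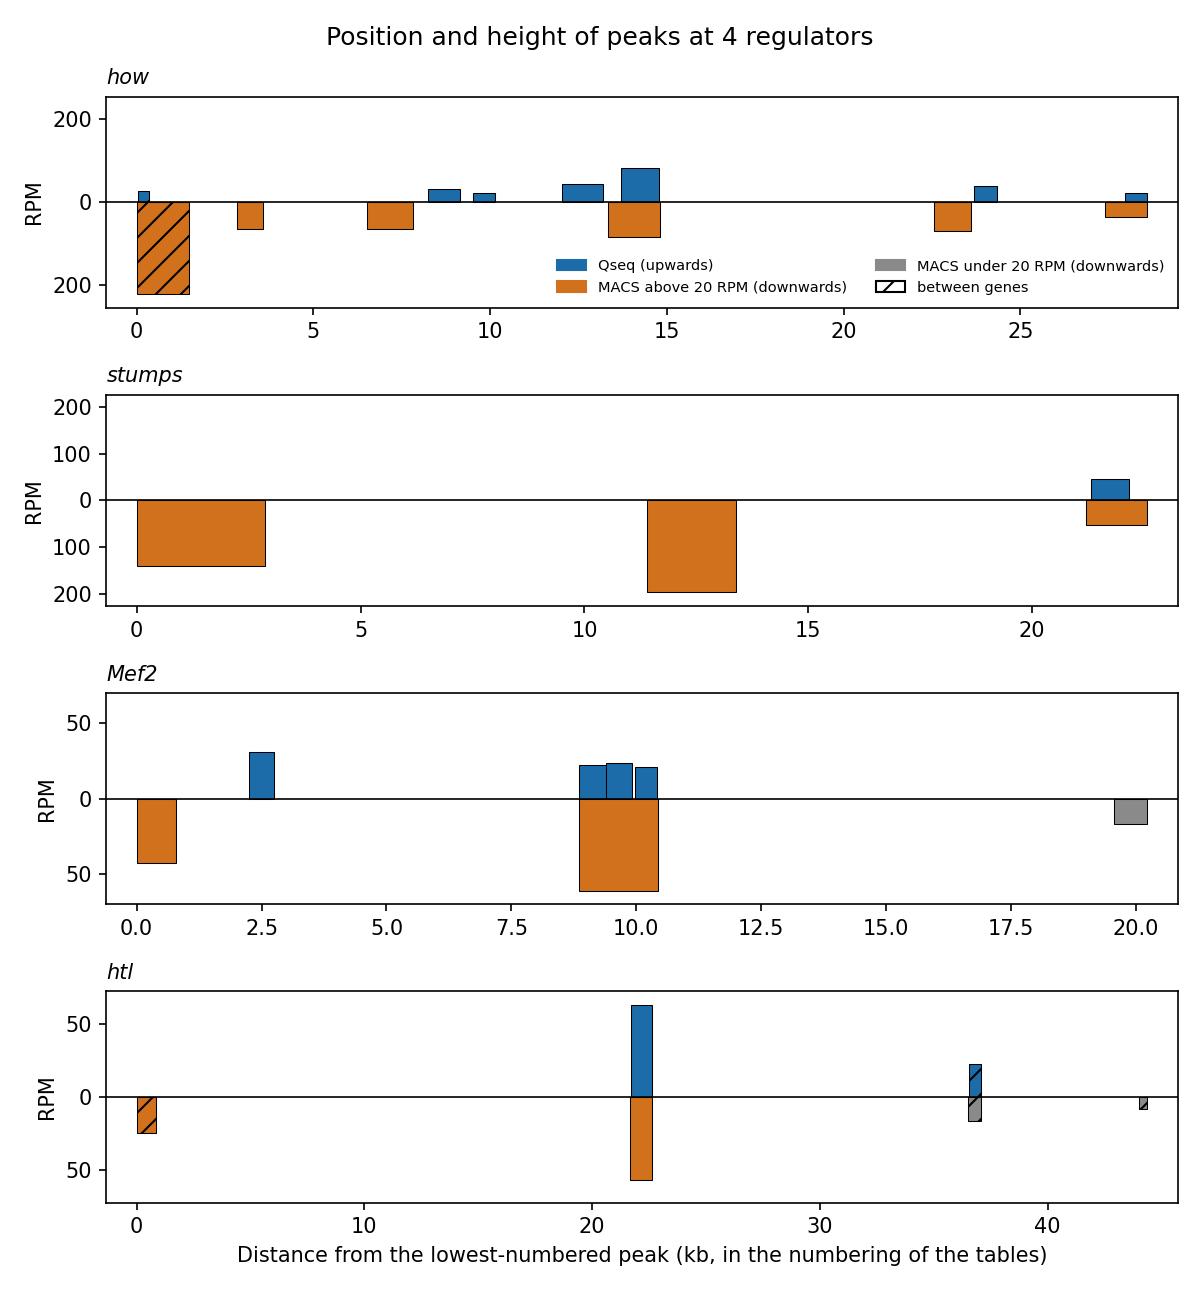
Peaks at how, stumps, Mef2 and htl along the chromosome, as distance from the lowest-numbered peak (kb), with Qseq peaks drawn upwards, MACS peaks downwards and peaks between genes hatched; the height of a box is its RPM and its width its length. At how most Qseq peaks are low and spread over the gene, with the highest, of 83.1 RPM, at the same place as a MACS peak of 83.6 RPM; at stumps the tall MACS peaks of 139.7 and 196.9 RPM have no Qseq counterpart.

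htl, the FGF receptor of the mesoderm, is 7.77 kb long, on the minus strand of 3R, with 44 GATC sites. Both programs placed 1 peak inside it, at almost the same position and of like height: Qseq gave 62.9 RPM (52.2 to 75.1), or 121 reads, at 13874261-13875187 and MACS 57.1 RPM (47.0 to 68.9), or 110 reads, at 13874195-13875198. This was the only peak of the 9 genes beside that of how for which both programs gave over 50 RPM at 1 place.

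The gaps beside htl are wide, 28.1 kb on its upstream side toward CG14317 and 19.8 kb on its 3′ side toward CG7794 in Release 6. On the upstream side Qseq had 22.3 RPM (16.2 to 30.1) at 13889099-13889630, where MACS had only a weak peak of 16.1 RPM (10.9 to 22.9), and a further weak MACS peak had 8.3 RPM (4.75 to 13.5). On the 3′ side MACS had 24.9 RPM (18.4 to 33.1) at 13852549-13853396, and Qseq none. All signal in the gaps was below that inside the gene, with intervals that do not overlap those of the peaks inside it.

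stumps, the adaptor through which the FGF receptors Heartless and Breathless signal, is 30.9 kb long, on the plus strand of 3R, with 109 GATC sites and 5 transcripts from 5 start sites. MACS placed 3 peaks inside it. From low to high position they had 139.7 RPM (124 to 157) at 10403371-10406229, 196.9 RPM (178 to 218), or 379 reads, at 10414773-10416758 and 53.5 RPM (43.7 to 64.9) at 10424579-10425937. For the second 7.20% of MACS peaks are as high or higher, and it was the second highest at the 9 genes.

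Qseq called only the last and lowest of these peaks, with 46.2 RPM (37.1 to 56.9) at 10424675-10425542. The rank of stumps among the 9 genes therefore depends on the program: its highest peak was 46.2 RPM in one table and 196.9 RPM in the other. Of genes of 20 kb or more, 53.2% had at least as many Qseq peaks and 25.1% at least as many MACS peaks. Of all MACS peaks of 100 RPM or more 68.5% overlap a Qseq peak, and of the 3 at the 9 genes the one upstream of how does and the pair at stumps do not.

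Over the 9 genes, 9 of the 14 Qseq peaks (64.3%) overlapped a MACS peak of either table by at least 1 bp, against 78.3% of all Qseq peaks. Of the 15 MACS peaks above 20 RPM, 6 overlapped a Qseq peak, against 62.3% of all such peaks. Both counts at the 9 genes were, as shares, below those of the tables at large, and the differences were not tested. The peaks found by both programs lay at how, Mef2, htl and stumps, and could lie nowhere else, since only these of the 9 genes had a Qseq peak.

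Mhc, the single gene for muscle myosin heavy chain in Drosophila, had no peak in any of the 3 tables, although it is 22.2 kb long. It lies on 2L, where the positions of the tables match Release 6: the named gene overlapped the peak in 99.1% of 1388 cases on the arm and in 51 of 51 within 1 Mb of Mhc. The gene has 125 GATC sites, with a median interval of 120 bp and a longest one of 874 bp. The lowest of all MACS peaks held 6.8 RPM, and signal too low to be called would not appear among the peaks. No detection limit was measured.

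The nearest peak was beyond the 3′ end of Mhc, in Cyt-b5-r, a cytochrome b5-related gene that adjoins Mhc. Qseq gave it 60.8 RPM (50.3 to 72.8) at 2L:16790682-16791448, 1.92 kb from Mhc, and MACS 55.1 RPM (45.1 to 66.6), 1.85 kb from Mhc. On the upstream side the first Qseq peak was 50.5 kb away, of 103.9 RPM (90.0 to 119), and the only signal nearer was a weak MACS peak of 9.3 RPM (5.54 to 14.8) at CG13278, 6.79 kb from Mhc. The whole Mhc gene thus lay in a stretch without peaks that ended shortly beyond its 3′ end.

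The 300 bases before the first start site of Mhc are shown from RefSeq (Release 6, chr2L:16766266-16766565, plus strand, 5′ to 3′) to be set against those of how, with GATC in capitals. Mhc has 1 match where how has 3. Among the other genes whose windows were searched, bap had 2, nau and stumps 1 each, and htl and tin none. Whether this number goes with the presence of a peak was not tested.
Mhc: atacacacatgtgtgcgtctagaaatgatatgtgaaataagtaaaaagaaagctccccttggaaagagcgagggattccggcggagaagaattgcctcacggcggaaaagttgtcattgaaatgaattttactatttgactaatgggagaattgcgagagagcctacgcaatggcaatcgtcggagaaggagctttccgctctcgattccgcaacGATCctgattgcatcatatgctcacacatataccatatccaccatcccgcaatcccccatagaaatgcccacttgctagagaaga

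No E box and no Su(H) site was found in the upstream windows of bap, htl, how, Mhc, nau, stumps and tin, while 3.38% and 3.49% of all windows of this length hold one. bap had 1 C site, found in 4.97% of windows, and how 1 N box, found in 27.8%. The peak beside Mhc had 1 Dam site and none of the other sites. Among the 694 Qseq peaks of 2L, 78.7% hold a Dam site, 59.8% an N box, 22.3% a C site, 11.7% a Su(H) site and 10.4% an E box.

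Further genes of the mesoderm and muscle programs were taken from 6 lists with 79 genes in all, also chosen with earlier results of these data known. A Qseq peak was present at 4 of the 9 genes and at 40 of the 79 (50.6%), and a MACS peak above 20 RPM at 6 of the 9 genes and at 60 of the 79 (75.9%), against 14.4% and 18.6% of all genes. The lists hold 25 genes of 20 kb or more, a length at which 53.2% (Qseq) and 61.8% (MACS) of all genes had a peak. They hold 23 genes under 5 kb (8.25% and 11.2%), and the rest are of 5 to 20 kb (32.4% and 41.8%). No list was tested. Names chosen for display are the genes of each list with the highest Qseq RPM.

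Of the 13 regulators of early mesoderm, heart and visceral mesoderm, 8 had a Qseq peak, against 14.4% of all genes. Only 3 had one inside the gene, against 11.0% of all genes. Of the 13 genes, 3 are 20 kb or longer, a length at which 53.2% of all genes had a Qseq peak. Another 6 are under 5 kb (8.25%), and the rest are of 5 to 20 kb (32.4%). zfh1, a repressor of the early mesoderm, had 199.5 RPM (180 to 220) beside it. pnr, a GATA factor of the heart, had 83.1 RPM (70.7 to 97.0) inside it, and mid, a T-box factor of the heart, 57.7 RPM (47.4 to 69.4) beside it. Pnr and Mid act in the heart alongside Tinman, whose own gene had no peak.

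Of the 16 muscle identity regulators 5 had a Qseq peak and 10 a MACS peak above 20 RPM, against 14.4% and 18.6% of all genes. Of the 16 genes, 4 are 20 kb or longer, where these shares were 53.2% and 61.8%. Another 4 are under 5 kb (8.25% and 11.2%), and the rest are of 5 to 20 kb (32.4% and 41.8%). Dr, a homeobox gene of dorsal and lateral muscles, had 177.1 RPM (159 to 197) beside it. kn had 60.3 RPM (49.8 to 72.3) inside it and ap 48.8 RPM (39.5 to 59.8) beside it. Only the Dr peak was above all peaks of the 9 genes in the Qseq table.

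Of the 10 genes of myoblast fusion 6 had a Qseq peak, against 14.4% of all genes. Of the 10 genes, 5 are 20 kb or longer, where this share was 53.2%. Only 1 is under 5 kb (8.25%), and the rest are of 5 to 20 kb (32.4%). Him, which encodes an inhibitor of Mef2, had 191.2 RPM (172 to 212) beside it. mbc, an activator of Rac in fusion, had 85.2 RPM (72.6 to 99.3), and kirre, an adhesion protein of founder cells, 67.5 RPM (56.4 to 80.2), both inside the gene.

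All 4 other FGF genes had a Qseq peak and a MACS peak inside the gene. bnl, the ligand of Breathless, and btl, which encodes Breathless, the FGF receptor of the trachea, both had 125.7 RPM (110 to 143). pyr and ths, the ligands of Heartless, had 112.2 RPM (97.7 to 128) and 51.9 RPM (42.3 to 63.2). With htl and stumps, all 6 genes of FGF signaling considered here had peaks inside the gene in both tables, against 11.0% (Qseq) and 14.7% (MACS) of all genes. Of the 6, stumps, ths and bnl are over 20 kb long, a length at which 53.2% (Qseq) and 61.8% (MACS) of all genes had a peak inside or beside them. For genes of 5 to 20 kb, such as htl, btl and pyr, these shares were 32.4% and 41.8%. Shares by length for peaks inside the gene alone were not computed.

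Of the 24 genes of sarcomere proteins, the class to which Mhc belongs, 9 had a Qseq peak and 16 a MACS peak above 20 RPM. Over all genes these shares were 14.4% and 18.6%. Of the 24 genes, 5 are 20 kb or longer, where the shares were 53.2% and 61.8%. Another 11 are under 5 kb (8.25% and 11.2%), and the rest are of 5 to 20 kb (32.4% and 41.8%). bt and sls, which encode titin-related proteins, had 116.9 RPM (102 to 133) and 63.9 RPM (53.1 to 76.2), and Zasp66, a protein of the Z-disc, 43.1 RPM (34.3 to 53.4).

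Of the 12 genes of muscle attachment, the process in which how acts in tendon cells, 8 had a Qseq peak and all 12 a MACS peak above 20 RPM, against 14.4% and 18.6% of all genes. Of the 12 genes, 6 are 20 kb or longer, where these shares were 53.2% and 61.8%. Only 1 is under 5 kb (8.25% and 11.2%), and the rest are of 5 to 20 kb (32.4% and 41.8%). LanB1, a laminin chain, had 194.3 RPM (175 to 215), kon, a transmembrane protein that guides muscles to tendons, 166.7 RPM (149 to 186) and wb, a laminin chain, 137.7 RPM (122 to 155), all inside the gene. All of these are above the highest Qseq peak of how.

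**Figure D4:**
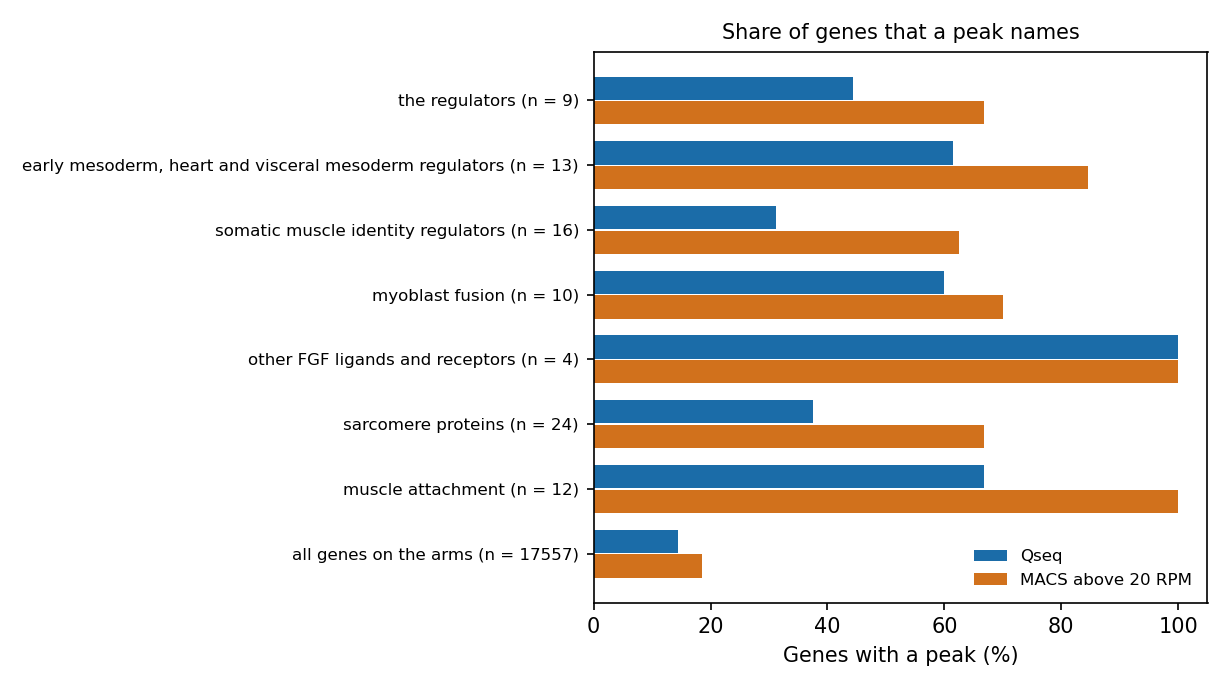
Share of genes (%) with a Qseq peak (upper bar) and a MACS peak above 20 RPM (lower bar) among the 9 genes, the 6 lists and all 17557 genes on the arms, with the number of genes in brackets. The 9 genes stand at 44.4% and 66.7%, all genes at 14.4% and 18.6%; the groups differ in gene length and were not tested.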

How the data were processed

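The authors assembled reads of DpnI-cut, amplified DNA with DNASTAR SeqMan NGen and normalized them to RPM, reads per 1000000 reads of the library. The deposited Qseq table gives the RPM of each peak, and a deposited count column gives its reads; peaks were kept by the authors above 20 RPM and at p under 0.05. MACS peaks of the same library were deposited as RPM in tables above and under 20 RPM, with no version of MACS given in the sources used here. The deposited MACS RPM values were whole reads of the same 1925156 reads in 100% of peaks, within 0.05 reads. The authors' p-value and score columns were not used. The header names m8 DamID without a Gal4 driver; that it is the un-driven condition was inferred from this, and which of the 2 libraries it is was not given.

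Of 4443 distinct gene names, 4258 (95.8%) matched Release 6. Genes with brackets in their names were left out. Positions on 3R and 2R did not match Release 6 and were not converted, so sequence and gene structure came from RefSeq by gene, and distances between peaks from the tables. The genes and lists were chosen with earlier results of these data known. The text names all 9 genes, genes named beside their peaks, and the 3 genes of each list with the highest Qseq RPM; ths and the neighbours of Mhc and twi were added after their values were seen. Exact Poisson 95% intervals were computed in Python 3.11.15 with numpy 2.4.6, scipy 1.17.1 and matplotlib 3.10.9, and were tested on simulated data. Alternatives were the MACS tables, peaks inside genes alone, a minimum of 40 RPM and an overlap of 50% of both peaks. Background classes by gene length, MACS peaks inside genes alone, the Release 6 span of twi and the motif windows were chosen after seeing the data.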

Additional observations from a re-analysis of the deposited data

How the results depend on the processing

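The number of the 9 genes with a peak was 4 in the Qseq table and stayed within 1.5 times of that in the MACS table above 20 RPM, with peaks inside genes alone and at 40 RPM; with both MACS tables it was 7. Of all genes, 14.4% had a Qseq peak, 18.6% a MACS peak above 20 RPM and 23.2% a peak in either MACS table. For Qseq, 11.0% had a peak inside the gene and 9.08% a peak of 40 RPM or more. At the 9 genes the number of peaks was 14, and 4 at 40 RPM or more. Heights depended on the program: in the MACS table the highest peak held 60.8 RPM at Mef2, 221.3 RPM at how and 196.9 RPM at stumps, against 31.2, 83.1 and 46.2 RPM in the Qseq table, while htl moved little. With 50% of both peaks required to overlap, 5 Qseq peaks at the 9 genes were found again by MACS, against 9 with 1 bp. Of 2433 Qseq peaks that lie whole within 1 MACS peak, the MACS peak had fewer reads in 1029 (42.3%), so the programs do not count the same reads, and the cause was not tested. With peaks inside genes alone, 3 early mesoderm, heart and visceral mesoderm regulators had a peak (8 with flanking peaks) and 3 muscle identity regulators (5 with flanking peaks). With MACS above 20 RPM, 10 muscle identity regulators and 16 sarcomere genes had a peak, against 5 and 9 with Qseq. The share of all genes also changed with these settings, from 14.4% to 11.0% for peaks inside genes and to 18.6% for MACS. With the Release 6 span of twi, chosen after seeing the data, the MACS peaks at the 9 genes numbered 17 in place of 15. No paired analysis was possible because only 1 library has peaks here, and for the same reason no replicate could be left out.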

Other observations

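Further homeobox genes that act in heart and muscle lie near tin and bap on 3R. Qseq had no peak at tin, bap, lbe, lbl, C15 or slou, and it had one at 14.4% of all genes. By length, the share was 8.25% under 5 kb (tin, bap and lbe) and 32.4% at 5 to 20 kb (C15 and slou). It was 53.2% at 20 kb or longer (lbl). MACS had 78.4 RPM (66.4 to 92.0) between bap and CG6475, 48.3 RPM (39.0 to 59.2) inside C15 and 25.5 RPM (18.8 to 33.6) inside lbe. Weak MACS peaks had 12.5 RPM (7.99 to 18.5) inside lbl, 15.6 RPM (10.5 to 22.2) inside C15 and 8.3 RPM (4.75 to 13.5) beside lbe, and slou had none. The bap peak was the highest of this group, and these genes were chosen for display after the values at tin and bap had been seen.

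At the median, peaks of the 9 genes were shorter than all peaks in the Qseq table and longer in the MACS table. The median length was 632.5 bp for the Qseq peaks at the 9 genes, against 725 bp for all Qseq peaks. For the MACS peaks above 20 RPM it was 1304 bp at the 9 genes, against 1106 bp for all.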
